A study of Homo sapiens with 6 samples.

Results

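The PRDM16 partner proteins and coregulators described here were 10 genes, CTBP1, CTBP2, EHMT1, EHMT2, MED1, PPARG, CEBPB, ZNF516, SKI and MECOM, out of 34644 gene names in the count tables. The first 9 code for proteins known to bind PRDM16 or to act with it, and MECOM is its close paralog. Members were taken by gene name, and rows that shared a name were summed, which took 16 of 38648 rows. The libraries came from HK-2, an immortalized human proximal tubular epithelial cell line. The cells of all 6 libraries were irradiated with 8 Gy of X-rays and harvested 7 days later, and all carried a lentivirus, with puromycin used to keep the cells that had taken it up. IR+NC-LV cells (n = 3, the controls) carried the negative control virus. IR+PR-LV cells (n = 3) carried the virus for PRDM16 overexpression. No unirradiated or virus-free library was analysed here. Nothing in the labels says that the 3 libraries of a group came from separate cultures, so that p-values measure the spread between these libraries, which may be technical.

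PRDM16 is a zinc finger protein best known for switching precursor cells to the brown fat program, and it works through the proteins it brings to chromatin. With the corepressors CtBP1 and CtBP2 it silences genes of white fat and muscle, and with the methyltransferases EHMT1 and EHMT2, which methylate lysine 9 of histone H3, it is tied to repressed chromatin. With PPARγ, C/EBPβ, ZNF516 and the Mediator subunit MED1 it activates genes, while SKI, a repressor of TGF-β signalling, binds PRDM16 and the SMAD proteins. The question asked of these data was whether the partners were expressed in irradiated HK-2 cells, and whether their mRNA differed when the PRDM16 virus was present.

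Total counts per library ran from 13407074 to 28540041, so that a floor of 3 counts corresponded to between 0.105 and 0.224 CPM (counts relative to a library total of 1e6), for counting error only. PRDM16 itself was counted 2, 0 and 1 times in the controls and 14, 10 and 8 times in cells with the PRDM16 virus. The groups did not overlap, but the gene was too low for the filter on low counts, and its TPM (a level corrected for gene length and library total) reached 0.308 at most. Of 10 proximal tubule markers, 5 were at 1 TPM or more in every library (AQP1, MME, GGT1 and PAX8 among them), while LRP2, CUBN, SLC34A1, ANPEP and HNF4A were not. Of 6 epithelial markers 5 passed that level, with CDH1 the exception. Markers of other cell types reached it for 2 of 8 adipocyte genes (LIPE and DGAT2), 2 of 7 fibroblast genes (COL1A1 and LUM), 2 of 6 leukocyte genes (CD68 and CD14) and 0 of 5 endothelial genes. CIDEA, which marks brown fat, was at 0.

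The promoters of 3 partners are shown because the results below turn on these genes. CEBPB was the most abundant partner and the one with the lowest p-value, and CTBP1 and EHMT1 were high in the same single library. Each window runs from 250 bases before to 50 bases after an annotated start in RefSeq (GRCh38.p14), 5′ to 3′ on the gene's own strand. RefSeq gave 2 such windows for CEBPB, 3 for CTBP1 and 1 for EHMT1, and the one nearest the gene start in the count tables was taken. Capitals mark GGGCGG on either strand, the core of a site for SP1-type factors. CEBPB was read from the plus strand at chr20:50190333-50190632, CTBP1 from the minus strand at chr4:1250306-1250605 and EHMT1 from the plus strand at chr9:137618755-137619054.
CEBPB: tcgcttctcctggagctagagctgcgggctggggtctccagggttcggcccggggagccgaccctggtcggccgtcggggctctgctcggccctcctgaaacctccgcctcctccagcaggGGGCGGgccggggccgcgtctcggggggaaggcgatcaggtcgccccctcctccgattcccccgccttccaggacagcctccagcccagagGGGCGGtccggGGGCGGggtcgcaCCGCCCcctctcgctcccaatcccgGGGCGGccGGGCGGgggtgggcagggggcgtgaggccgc
CTBP1: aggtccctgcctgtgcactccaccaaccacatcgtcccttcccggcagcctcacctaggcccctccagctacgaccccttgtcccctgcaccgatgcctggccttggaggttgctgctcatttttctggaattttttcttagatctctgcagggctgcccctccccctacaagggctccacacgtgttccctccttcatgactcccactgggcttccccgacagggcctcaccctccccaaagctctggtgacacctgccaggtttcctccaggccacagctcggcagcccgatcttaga
EHMT1: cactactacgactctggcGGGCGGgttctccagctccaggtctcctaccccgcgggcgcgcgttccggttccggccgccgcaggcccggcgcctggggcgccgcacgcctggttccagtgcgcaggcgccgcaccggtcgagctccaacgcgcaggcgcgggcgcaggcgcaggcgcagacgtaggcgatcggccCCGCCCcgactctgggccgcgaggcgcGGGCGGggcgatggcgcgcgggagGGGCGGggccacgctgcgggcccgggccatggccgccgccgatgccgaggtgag
The CEBPB window held 6 matches and 31 CpG dinucleotides, at a GC content of 77.0%. The EHMT1 window held 4 matches and 51 CpG dinucleotides, at 79.3%. The CTBP1 window held no match and 8 CpG dinucleotides, at 61.0%. The other annotated windows of CTBP1 and CEBPB are not described here, and which start HK-2 cells use was not tested. Over all 35116 RefSeq windows of this length, 44.95% had at least 1 GGGCGG on either strand, the median number of CpG dinucleotides was 14 and the median GC content was 58.7%. The letters CCAAT, present in 34.61% of all windows on either strand, occurred in the CEBPB window and in neither of the others, and TATAAA (11.53% of windows, either strand) occurred in none of the 3. Windows were found for 9 of the 10 partners. The one without was SKI, which was high in the same library as CTBP1 and EHMT1.

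All 10 partners were counted in every library, and 9 of them were at 1 TPM or more in all 6 libraries. The exception was MECOM, whose lowest value was 0.983 TPM, in IR+PR-LV replicate 1. Over the whole table, 13451 gene names (38.8%) reached 1 TPM in every library. On the TPM scale the order of mean levels over the 6 libraries was CEBPB, MED1, CTBP2, CTBP1, EHMT1, SKI, PPARG, ZNF516, EHMT2 and MECOM. CEBPB, a basic leucine zipper factor that starts fat cell differentiation and is also induced in stress and inflammation, led with 85.4 TPM (range 75.8 to 104), above 91.3% of the 27403 gene names with any count. MED1, the Mediator subunit that nuclear receptors contact, followed with 61.4 TPM (range 57.5 to 71.9). These ranges did not overlap with each other or with that of CTBP2, at 28.0 TPM (range 27.3 to 29.1).

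**Figure D1:**
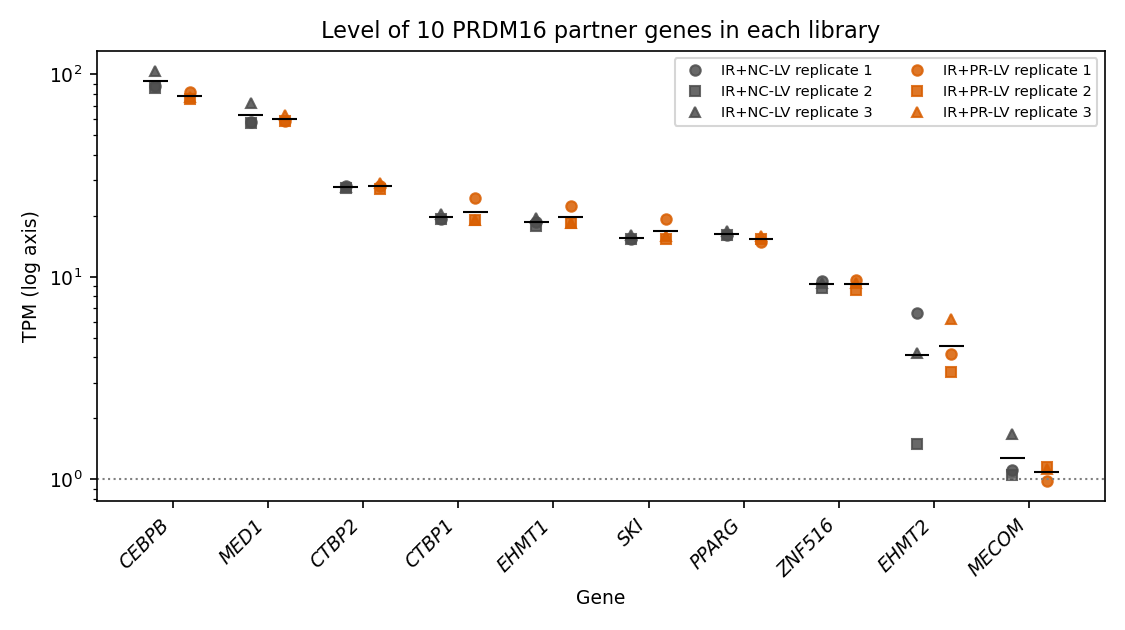
TPM (log axis) of the 10 partner genes in each of the 6 libraries, 1 point per library, with genes on the horizontal axis in order of their mean. Points of CEBPB lie between 75.8 and 104 TPM and those of MECOM between 0.983 and 1.68 TPM, while EHMT2 is the gene with the widest scatter.

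The middle of the order was less firm. CTBP1 (20.3 TPM), EHMT1 (19.2 TPM), SKI (16.2 TPM) and PPARG (15.8 TPM) overlapped in range with their neighbours. Within a library CTBP1 was nevertheless higher than EHMT1, and EHMT1 higher than SKI, in 6 of 6 libraries. SKI was higher than PPARG in only 2 of 6. PPARG encodes the nuclear receptor that drives fat cell formation, and its TPM of 14.8 to 16.8 here came with 2 of the 8 adipocyte markers at 1 TPM or more. ZNF516, a zinc finger factor that activates UCP1 together with PRDM16, was at 9.20 TPM (range 8.59 to 9.65), below every value of PPARG and above every value of EHMT2. EHMT2 (1.49 to 6.63 TPM) and MECOM (0.983 to 1.68 TPM) overlapped in range, although EHMT2 was the higher in each library. The place of EHMT2 in this order holds only for the reads counted on its 7 listed copies, described below. MECOM nonetheless exceeded PRDM16 as counted in the IR+PR-LV libraries, with TPM ratios of 3.19, 8.84 and 6.89 in replicates 1 to 3. These ratios rest on 14, 10 and 8 counts of PRDM16. How much of the mRNA made from the virus was counted on the PRDM16 row is not known. They are therefore no measure of PRDM16 protein, for which the paper shows a western blot of HK-2 cells with either virus.

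No partner passed the threshold between the groups. In edgeR's quasi-likelihood test and Benjamini-Hochberg adjustment over the 15054 gene names tested, 0 of the 10 partners had an adjusted p under 0.05, where 12 of all tested genes (0.0797%) did, with 0.0266% higher and 0.0531% lower. At an unadjusted p under 0.05 there was 1 partner, CEBPB, against a background of 10.5% of the tested genes (4.41% higher and 6.09% lower). DESeq2 called 0 partners, where it called 151 of the 14650 genes it gave an adjusted p. It gave no partner an unadjusted p under 0.05. The groups did not overlap for 2 of the 10 (CEBPB and SKI), where 17.0% of tested genes had groups that did not overlap (7.45% higher and 9.56% lower). Log2 fold changes were positive for 6 partners and negative for 4, with a median of 0.05, beside 0.0043 for all tested genes. The 95% interval lay within 0.5 on either side of 0 on the log2 scale for 8 of the 10, the exceptions being EHMT2 and MECOM. The bound farthest from 0 among those 8 was 0.35, a 1.28-fold difference.

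**Figure D2:**
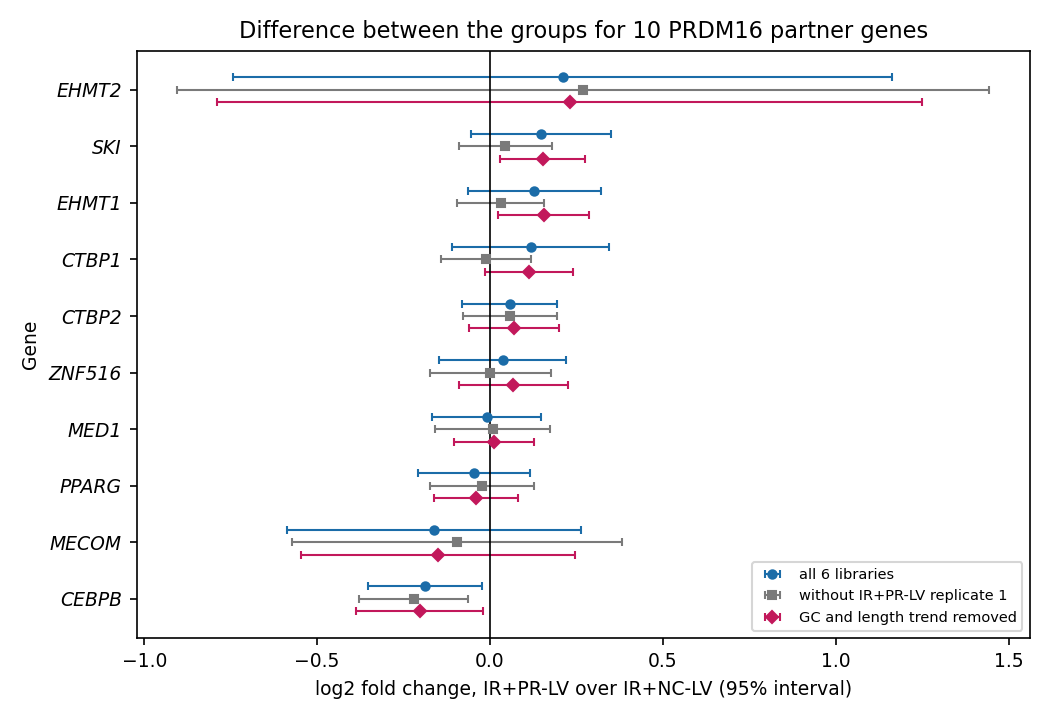
Log2 fold change of the 10 partners, IR+PR-LV over IR+NC-LV, with 95% intervals from edgeR fits. Each gene has 3 points: all 6 libraries (3 libraries per group), without IR+PR-LV replicate 1, and with the GC and length trend removed (described below). With all 6 libraries, the interval of CEBPB, from -0.35 to -0.02, is the only one that leaves out 0. That of EHMT2, from -0.74 to 1.16, is the widest in the same fit. With the trend removed, the intervals of SKI (0.03 to 0.28) and EHMT1 (0.02 to 0.29) also leave out 0. How many of all tested genes had such an interval in that fit was not taken.

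The corepressors CTBP1 and CTBP2 recruit histone deacetylases and demethylases to DNA-bound factors such as PRDM16. CTBP1 was at 61.0, 62.5 and 60.7 CPM in the controls and at 78.5, 61.6 and 60.1 CPM with the PRDM16 virus. One IR+PR-LV library was high, and the other two lay in or just below the range of the controls. Its log2 fold change was 0.12 (SE 0.10, edgeR adjusted p = 0.723). CTBP2 was at 110, 109 and 102 CPM in the controls and at 111, 109 and 114 CPM with the PRDM16 virus, with a log2 fold change of 0.06 (SE 0.06, edgeR adjusted p = 0.787). The groups overlapped for both genes. On the minus strand of chromosome 10 (hg38, 124984317 to 125161039), CTBP2 shares 26.8% of its exon bases with ZRANB1 on the opposite strand, which was itself at 43.1 to 53.8 CPM. Whether the counting used the strand is not given in the sources used here, so reads from the shared bases cannot be assigned. CTBP1, on the minus strand of chromosome 4 (1211444 to 1250355), shares 7.79% of its exon bases with antisense genes.

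CTBP2 exceeded CTBP1 by 1.39-fold in TPM on average. The log2 ratio of CTBP1 to CTBP2 within a library was -0.50 ± 0.05 in the controls and -0.45 ± 0.22 with the PRDM16 virus (SD, 3 libraries in each group). The difference of 0.05 had p = 0.9 in a two-sided exact permutation test over libraries, a test that cannot go below 0.1 with 3 against 3. A total of 3 such ratios between paralogs were compared, and all had an adjusted permutation p of 0.9. The other two are given with EHMT1 and SKI.

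EHMT1 (GLP) and EHMT2 (G9a) form a heterodimer that adds 1 or 2 methyl groups to lysine 9 of histone H3, and EHMT1 is the member best known as a PRDM16 partner in brown fat. EHMT1 was at 69.7, 68.4 and 68.6 CPM in the controls and at 85.5, 71.0 and 69.6 CPM with the PRDM16 virus. As for CTBP1, IR+PR-LV replicate 1 stood above the rest, and IR+PR-LV replicate 3 fell just below the highest control. The log2 fold change was 0.13 (SE 0.09, edgeR adjusted p = 0.644). EHMT1 lies on the plus strand of chromosome 9 (137619001 to 137836127) and shares 4.17% of its exon bases with LOC651337 on the other strand.

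EHMT2 could not be measured with similar precision. Its summed level was 9.16, 2.08 and 5.17 CPM in the controls and at 5.71, 4.71 and 8.47 CPM with the PRDM16 virus. The lowest and the highest library were both controls, and the groups overlapped throughout. The log2 fold change was 0.21 (SE 0.43, 95% interval -0.74 to 1.16, edgeR adjusted p = 0.890), an interval that spans a lower as well as a more than doubled level. Within groups, the SD of its log2 CPM was 0.80, larger than that of 99.0% of the tested genes. For comparison, the same SD was 0.036 for PPARG, 0.051 for CTBP2 and 0.225 for MECOM, which has fewer reads than EHMT2.

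EHMT2 is listed 7 times, once on chromosome 6 (31879759 to 31897698, minus strand, in the major histocompatibility region) and 6 times on alternate scaffolds of that region. Of its 654 counts, 22 were on the chromosome 6 row and 632 (96.6%) on the alternate rows. The alternate copy that held the most counts was not the same in each library. Copy 2 held 106 of 154 counts (68.8%) in IR+NC-LV replicate 1 and copy 3 held 81 of 156 (51.9%) in IR+PR-LV replicate 3. In the remaining libraries copy 5 led, with 36.4% to 60.4% of the counts. The row on chromosome 6 had 1, 2 and 0 counts in the controls and 5, 10 and 4 with the PRDM16 virus, a split that concerns 22 of the 654 counts and is not a level of the gene. How reads that fit several places were handled is not given in the sources used here.

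**Figure D3:**
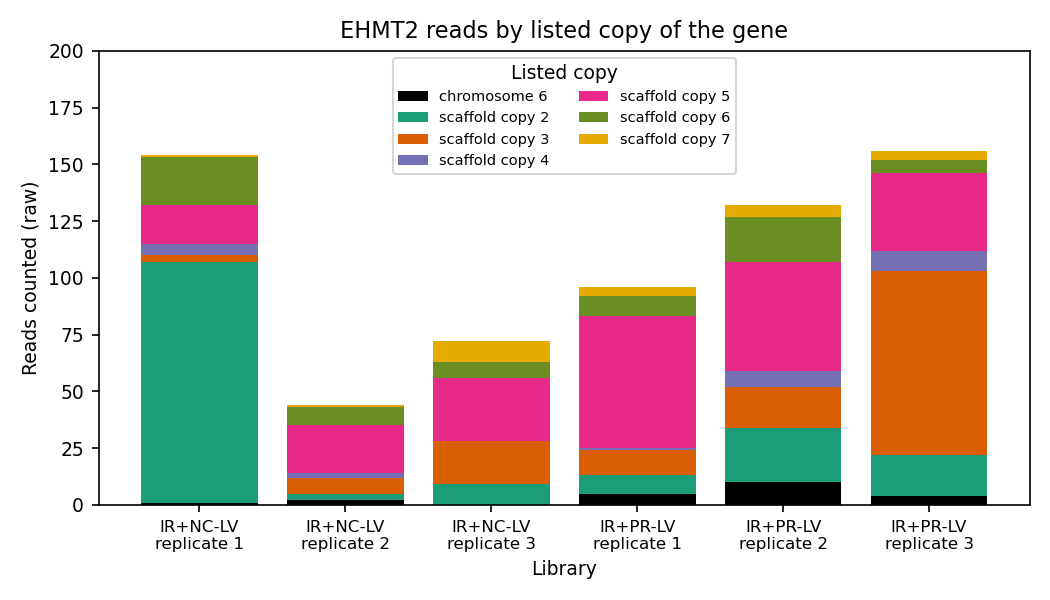
Raw reads counted on each of the 7 listed copies of EHMT2, stacked per library, with the libraries on the horizontal axis. The stacks range from 44 to 156 reads, and the copy with the largest share differs between libraries.

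Other genes with many listed copies were also variable, but mostly less so. Among the 1062 tested names with a single row and a CPM near that of EHMT2, the median within-group SD was 0.177, and 100% were below EHMT2. Among the 22 names of similar CPM with 6 rows or more, the median was 0.345, and 77.3% were below EHMT2. The ratio of EHMT1 to EHMT2 took over this spread. It was 2.43 ± 1.07 on the log2 TPM scale in the controls and 2.16 ± 0.50 with the PRDM16 virus (SD, 3 libraries in each group), with p = 0.9 in the two-sided exact permutation test. EHMT1 was 4.91-fold above EHMT2 on average, a value that holds for the reads counted and rests on the copies just described. The genes whose log2 CPM followed EHMT2 most closely over the 6 libraries were B3GNT3 (r = 0.984), ZNF350 (r = 0.981) and POLG2 (r = 0.974), chosen from all tested genes as the 3 highest and given as a description over 6 libraries that share their depths.

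Among the coactivators and the DNA-binding partners, CEBPB was the one that differed most. CEBPB was at 56.4, 56.6 and 62.5 CPM in the controls and at 53.9, 50.1 and 50.1 CPM with the PRDM16 virus. Every IR+PR-LV library lay below every control. Its log2 fold change was -0.19 (SE 0.07, 95% interval -0.35 to -0.02), a level of 0.878 times that in IR+NC-LV, with interval 0.784 to 0.984. The unadjusted p was 0.0290 and the adjusted p was 0.415 in edgeR's quasi-likelihood test, so that the difference did not pass the threshold, and the two-sided exact permutation p was 0.1, the smallest the design allows. Without IR+NC-LV replicate 3, IR+PR-LV replicate 2 or IR+PR-LV replicate 3, the unadjusted p was no longer under 0.05. In bulk RNA, fewer cells that express a gene and less mRNA per cell cannot be told apart.

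CEBPB lies on the plus strand of chromosome 20 (50190583 to 50192690), and 26.6% of its exon bases overlap CEBPB-AS1 on the other strand. CEBPB-AS1 was far lower, at 0.594 to 1.72 CPM. The summed TPM of the leukocyte markers, a cell type in which C/EBPβ is abundant, was 187 to 205 in the controls and 159 to 175 with the PRDM16 virus, and its part in the CEBPB difference was not tested. Only CD68 and CD14 of the 6 leukocyte markers were at 1 TPM or more.

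MED1, on chromosome 17 (39404285 to 39451281, minus strand), was at 146, 147 and 168 CPM in the controls and at 149, 151 and 157 CPM with the PRDM16 virus. The IR+PR-LV values all fell inside the range of the controls, and the log2 fold change was -0.0094 (SE 0.07, edgeR adjusted p = 0.973). PPARG, on chromosome 3 (12287368 to 12434344, plus strand), was the steadiest partner. It was at 34.9, 35.5 and 34.1 CPM in the controls and at 32.6, 34.2 and 34.3 CPM with the PRDM16 virus, with a log2 fold change of -0.05 (SE 0.07, 95% interval -0.21 to 0.11, edgeR adjusted p = 0.854). ZNF516, on chromosome 18 (76357682 to 76495255, minus strand), was at 29.9, 28.1 and 27.5 CPM in the controls and at 30.7, 27.6 and 29.4 CPM with the PRDM16 virus. The groups overlapped, and the log2 fold change was 0.04 (SE 0.08, edgeR adjusted p = 0.902).

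SKI keeps SMAD proteins from activating TGF-β target genes. On chromosome 1 (2228319 to 2310213, plus strand), it was at 52.1, 53.0 and 51.2 CPM in the controls and at 66.0, 53.4 and 54.1 CPM with the PRDM16 virus. No value of IR+PR-LV reached down to the controls, but replicates 2 and 3 exceeded the highest control only narrowly. The log2 fold change was 0.15 (SE 0.09, 95% interval -0.05 to 0.35, edgeR adjusted p = 0.610), with a two-sided exact permutation p of 0.1, the smallest possible. Its paralog SKIL, which blocks the same SMAD complexes, was 5.06-fold more abundant than SKI in TPM on average. The log2 ratio of SKI to SKIL was -2.42 ± 0.12 in the controls and -2.26 ± 0.26 with the PRDM16 virus (SD, 3 libraries in each group), a difference of 0.17 with p = 0.4 in the two-sided exact permutation test.

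MECOM encodes a factor that shares the PR domain and the zinc finger arrays of PRDM16. It lies on chromosome 3 (169083506 to 169663781, minus strand). Its values were 2.86, 2.75 and 4.02 CPM in the controls and at 2.56, 3.04 and 2.88 CPM with the PRDM16 virus. The groups overlapped, and 1 control library was above the other five. The log2 fold change was -0.16 (SE 0.19, 95% interval -0.59 to 0.26, edgeR adjusted p = 0.804), so that at this depth neither a fall nor a small rise could be told from no difference.

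Before any correction for GC content, the positive values of CTBP1, EHMT1 and SKI came largely from 1 library. IR+PR-LV replicate 1 exceeded the mean of the other five by 28.4% for CTBP1, 25.2% for SKI and 23.1% for EHMT1. Among all tested genes, 1934 of 15054 (12.8%) were at least 20% above the other five in that library. Without it, the log2 fold changes were -0.01 for CTBP1, 0.03 for EHMT1 and 0.04 for SKI. ZNF516 was also highest in that library, 7.90% above the mean of the other five, and CTBP2 was 2.39% above it. MECOM and PPARG were lowest there, at -17.8% and -5.81% relative to that mean, and CEBPB was at -2.35%.

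In the same library, level moved with GC content across genes. The slope of log2 CPM, relative to the mean of the 6 libraries, was 0.115 per 10 percentage points of GC in IR+PR-LV replicate 1, -0.029 in replicate 2 and -0.090 in replicate 3, and between -0.0064 and 0.0075 in the controls. CTBP1 (GC content of its longest transcript 60.4%), SKI (60.0%) and EHMT1 (53.5%) are above the median of 48.1% over the 13590 genes with a value. So are CEBPB (66.2%), EHMT2 (60.9%) and ZNF516 (54.0%). MED1 (46.1%), PPARG (44.0%), MECOM (43.3%) and CTBP2 (42.7%) are below it. Of the 2715 tested genes with a GC content from 53.5% to 60.4%, 504 (18.6%) were at least 20% above the other libraries in IR+PR-LV replicate 1. With the trend of each library removed, a step chosen after seeing the data, the deviation of that library from the mean of all 6 went from 0.30 to 0.15 for CTBP1, from 0.27 to 0.12 for SKI and from 0.25 to 0.18 for EHMT1, on the log2 scale. For CEBPB it went from -0.02 to -0.25.

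After the trends were removed, the fold changes of the 4 genes were similar in size and still did not pass the threshold. SKI was at 0.15 (95% interval 0.03 to 0.28, unadjusted p = 0.0204, edgeR adjusted p = 0.213) and EHMT1 at 0.15 (0.02 to 0.29, unadjusted p = 0.0253, edgeR adjusted p = 0.227). CTBP1 was at 0.11 (edgeR adjusted p = 0.342). CEBPB was at -0.20 (unadjusted p = 0.0324, edgeR adjusted p = 0.249). At an unadjusted p under 0.05 there were thus 3 partners in this fit. The share of all tested genes at that level was not taken here, so the 3 have no background. At the adjusted threshold the same fit called 70 of 13590 tested genes. Removing the trend and removing the library therefore gave different values for SKI and EHMT1, 0.15 each against 0.04 and 0.03. For CTBP1 they gave 0.11 against -0.01.

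The partners work inside larger complexes and families, whose other genes were taken from 5 lists of 102 tested genes in all. None of the 102 had an adjusted p under 0.05 in edgeR's test, while 12 (11.8%) had an unadjusted p under 0.05, 4 of them higher and 8 lower, against 10.5% of all tested genes. Without IR+PR-LV replicate 1 the count was 24 (9 higher and 15 lower), and with the GC and length trend removed it was 19 (8 higher and 11 lower). The share of all tested genes at that level was not taken in these fits. The counts of 24 and 19 therefore have no background and cannot be set against 10.5%. DESeq2 called 1 of the 102, PPARGC1A, where it called 151 of the 14650 genes it gave an adjusted p. In the CtBP and LSD1 corepressor complex, 21 of 22 listed genes were tested and 21 were at 1 TPM or more in every library, with a median level of 33.0 TPM. Its median log2 fold change was 0.03, and at an unadjusted p under 0.05 there were 3 higher and 2 lower. The deacetylase HDAC1 was the most abundant, at 474 TPM. HDAC2 was at 279, 291 and 266 CPM in the controls and at 310, 329 and 345 CPM with the PRDM16 virus, the largest positive value of the list at 0.24 (edgeR adjusted p = 0.265). The corepressor RCOR3 had the largest negative value, -0.29 (edgeR adjusted p = 0.267).

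Of the 20 genes for H3K9 methylation and its readers, all were tested and at 1 TPM or more, with a median of 46.2 TPM and a median log2 fold change of 0.02. At an unadjusted p under 0.05 there was 1 gene, the heterochromatin protein CBX3, with 0.17 (edgeR adjusted p = 0.472) and the highest level of the list, 409 TPM. The methyltransferase SETDB2 had the largest negative value, -0.32 (edgeR adjusted p = 0.577). Mediator, the complex that links activators to RNA polymerase II and to which MED1 belongs, had all 32 listed genes tested and 31 at 1 TPM or more. The median log2 fold change was 0.05, and 0 genes were higher and 2 lower at an unadjusted p under 0.05. The kinase-module subunit MED12 was at 47.6, 45.1 and 54.6 CPM in the controls and at 44.9, 39.5 and 40.9 CPM with the PRDM16 virus, with a log2 fold change of -0.23 (edgeR adjusted p = 0.420). MED18, a low gene listed in 2 rows, had the largest positive value, 0.57 (edgeR adjusted p = 0.624), and CCNC, which encodes cyclin C, had the highest level at 223 TPM.

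In the list of PPAR, RXR and C/EBP factors with their coactivators, 15 of 20 genes were tested, and all 15 were at 1 TPM or more. The median log2 fold change was -0.04, with 0 genes higher and 3 lower at an unadjusted p under 0.05. The gene with the largest negative value was PPARGC1A, which encodes the coactivator PGC-1α, a driver of mitochondrial genes that PRDM16 also binds. It was at 19.5, 16.0 and 22.1 CPM in the controls and at 11.9, 11.4 and 10.5 CPM with the PRDM16 virus. Every IR+PR-LV library was below every control, and the log2 fold change was -0.77 (SE 0.13, edgeR adjusted p = 0.0662), which did not pass the threshold. With DESeq2 the adjusted p was 0.000248. DDIT3 was the most abundant of the list at 154 TPM, with a log2 fold change of -0.34 (edgeR adjusted p = 0.192). RXRB, listed in 6 rows, had the largest positive value, 0.14 (edgeR adjusted p = 0.812).

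Among the close paralogs of CEBPB, CEBPD was at 75.8 TPM, CEBPG at 74.0 TPM and CEBPA at 6.33 TPM. Their log2 fold changes were 0.01 for CEBPD (edgeR adjusted p = 0.979), -0.22 for CEBPG (0.377) and -0.04 for CEBPA (0.957). PPARG was close in level to PPARD (16.9 TPM) and above PPARA (5.07 TPM). Of the listed genes that were not tested, EBF2 had 0 counts in every library, and KLF15 and ZNF423 were too low to be tested. In the list of SKI and SMAD genes, 14 of 15 were tested and at 1 TPM or more, with a median log2 fold change of -0.06 and 1 gene lower at an unadjusted p under 0.05. That gene was RNF111, a ubiquitin ligase that removes SKI and SKIL, at 61.4, 52.5 and 60.8 CPM in the controls and at 47.6, 47.1 and 47.0 CPM with the PRDM16 virus (log2 fold change -0.30, edgeR adjusted p = 0.234). SKIL was at 82.1 TPM and SMAD3 was the highest at 116 TPM. The inhibitory SMAD6 had the largest positive value, 0.16 (edgeR adjusted p = 0.576).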

How the data were processed

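Poly(A)-selected RNA of the 6 HK-2 samples was sequenced in pairs of reads. For each gene row the authors deposited raw counts, with TPM and FPKM values made from the same counts and gene lengths, and the deposited TPM served for levels while FPKM was not used further. The submitters' processing notes name CASAVA, featureCounts 2.0.1, DESeq2 1.16.1 and hg38. The aligner, the strand setting and the treatment of reads with several positions are not given in the sources used here.

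Rows that shared a gene name were summed. IR+PR-LV was compared with IR+NC-LV over all 6 libraries with edgeR 4.0.16 in R 4.3.3 (filterByExpr with its minimum of 10 counts and total of 15, TMM factors 0.981 to 1.04, glmQLFit and glmQLFTest, no covariates), with a threshold of 0.05 on the Benjamini-Hochberg adjusted p over all gene names tested. CPM values are TMM-normalized. Alternatives were DESeq2 1.42.0, normalization by RLE or by the upper quartile, other filters, a replicate block, leaving out each library, and each row on its own. A further one, chosen after seeing the data, subtracted a trend of level with GC content and transcript length in every library. GC content and length came from the longest GENCODE release 29 transcript of each gene name, not from all exon bases counted. The members and the lists were chosen with earlier results of these data known. Named genes were the partners, PRDM16, close paralogs, any list gene past the threshold, the largest positive and negative value and the highest TPM of each list, and the 3 genes most like the partner with the largest SD. EBF2, KLF15 and ZNF423 were named after their values were seen. Intervals and floors cover counting error only where they come from counts of 1 library, since reads are not independent molecules. Some marker genes are not reported here.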

Additional observations from a re-analysis of the deposited data

How the results depend on the processing

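No partner passed the threshold under any of the 14 alternatives, and the lowest adjusted p of any partner was 0.187, for CEBPB without IR+PR-LV replicate 1. Of 140 partner fold changes recomputed, 132 kept their direction and 8 turned. CEBPB stayed between -0.22 and -0.14 on the log2 scale (adjusted p 0.187 to 0.836). MED1 was 0.0035 with DESeq2 and 0.012 with the GC and length trend removed. With each library left out in turn, log2 fold changes ranged from -0.013 to 0.19 for CTBP1 (lowest without IR+PR-LV replicate 1), from -0.21 to 0.83 for EHMT2 (lowest without IR+NC-LV replicate 2, and -0.06 without IR+PR-LV replicate 3), from -0.047 to 0.061 for MED1 and from -0.27 to 0.023 for MECOM (highest without IR+NC-LV replicate 3). The difference in the log2 ratio of CTBP1 to CTBP2 ranged from -0.072 to 0.14, that of EHMT1 to EHMT2 from -0.74 to 0.31, and that of SKI to SKIL from 0.022 to 0.27. All 10 partners were at 1 TPM or more in every library once IR+PR-LV replicate 1 was left out.

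The number of genes past the threshold was 12 (4 higher and 8 lower). DESeq2 gave 151, the fit with no filter on low counts gave 354, and there were 70 (15 higher and 55 lower) with the GC and length trend removed. Leaving out 1 library gave between 2 (without IR+PR-LV replicate 3) and 35 (without IR+NC-LV replicate 2), with 6 without IR+PR-LV replicate 1 and 18 without IR+NC-LV replicate 3. The cause was not tested. PPARGC1A passed the threshold with DESeq2 (adjusted p = 0.000248), without a filter (1.34e-05), without IR+NC-LV replicate 2 (0.0285) and with the trend removed (0.0484), and its log2 fold change stayed between -0.89 and -0.65. DDIT3 also passed without a filter. Without a filter PRDM16 was tested, with a log2 fold change of 3.02 (edgeR adjusted p = 0.00359).

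With the replicate number as a replicate block, 18 genes passed (6 higher and 12 lower) and 0 partners. Same-numbered libraries deviated together with r of -0.017, 0.058 and 0.059. The labels link them by number only, and whether they shared a culture or a preparation was not tested. The intervals of EHMT2 and MECOM were the widest among the partners, and 3 libraries a group limit every test.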
